A study of Mus musculus with 32 samples.

Results

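Glia of 2 transgenic mouse models were set against each other here, through the difference between the SOD1-G93A effect and the TAU-P301L effect in cells captured around lumbar motor neurons. An effect is the log2 ratio of a transgenic extract over the extract of its littermate control, averaged over 2 arrays on which the dyes were exchanged. All 16 glia arrays of the 32 in the series entered, which gives 4 pairs per model. A gene was kept when its probe was well above background in at least 4 of the 8 extracts (4 transgenic, 4 control) of either model. Of 27569 genes or single probes on the array, 10775 met this, and 7763 of them had a value in all 8 glia pairs.

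The SOD1-G93A pairs (SODgl) came from female mice of 8 weeks, B6SJL-Tg(SOD1-G93A)1Gur against B6SJL. The TAU-P301L pairs (TAUgl) came from female mice of 16 weeks, B6D2F1-Tg(TAU-P301L) against B6D2F1. Model, strain and age therefore differ together and cannot be told apart in the difference. By scan date, SODgl pairs 3 and 4 fell in the third scan batch and TAUgl pairs 3 and 4 in the fourth. For these pairs scan batch and model cannot be told apart either. The labels name neither the promoter nor the copy number of the transgenes. About 500 cells per mouse were cut by laser from cresyl violet sections of 12 µm, so a lower value can mean fewer cells of a type or less RNA per cell. These cannot be told apart in the captured material.

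SOD1-G93A is a mutant human superoxide dismutase that causes a motor neuron disease in mice, and P301L is a mutation of the microtubule-associated protein tau found in frontotemporal dementia. Around a motor neuron soma lie astrocytes, which clear glutamate and potassium, oligodendrocytes, which make myelin and pass lactate to axons, and microglia, the resident phagocytes. In the SOD1-G93A line, loss of the astrocyte glutamate transporter Slc1a2 and activation of microglia are known features of later disease. In tau models, neurons and some glia gather phosphorylated tau.

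The captures were not pure glia by their markers. The transporter Slc1a2 and the myelin gene Mbp were well above background in 16 of 16 glia extracts. Gfap, the classical astrocyte filament, reached this in 2 of 16 and was not tested. The neuronal genes Nefh and Uchl1 were above background in all 16 glia extracts, and Chat, which makes acetylcholine in motor neurons, in 5. Chat reached the same in 8 of the 16 motor neuron extracts. The motor neuron list as a whole did not differ in this way. Its 20 members on the array were above background in a median of 14.5 glia extracts and 14 motor neuron extracts. In glia 7 of them reached all 16 extracts, and in motor neuron captures 4 did.

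No gene passed an adjusted p of 0.05 for the difference in limma (0 of 10775, 0%). At an unadjusted p under 0.05 there were 550 genes (5.1%). Of these, 371 (3.44%) were higher in SOD1-G93A glia and 179 (1.66%) higher in TAU-P301L glia. The smallest adjusted p was 0.586, for Gstp1. Everything below is therefore given as values with their spread, and no gene named is called different between the models.

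A second description asks whether the 4 pairs of one model all lay above the 4 of the other. Among the 7763 genes with all 8 pairs, 146 (1.88%) had every SODgl pair above every TAUgl pair, and 90 (1.16%) had the reverse, together 236 (3.04%). In 32 genes (0.412%) all SODgl ratios were above 0 and all TAUgl ratios below, and in 22 (0.283%) the opposite held. The median difference was 0.34 (log2) among the 146 and 0.21 in size among the 90. Among the 146, the SODgl mean was farther from 0 than the TAUgl mean in 110. Among the 90, it was farther in 36. When the pairs of the fifth scan batch (SODgl pair 2 and TAUgl pair 1) were left out, 3 pairs against 3 separated 530 and 541 genes of 10650. Fewer pairs separate more genes by construction. Some genes would also separate without a difference between the models, and how many was not tested.

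The genes that carry the transgenes' names came first. Sod1 had log2 ratios of -0.11, -0.45, -0.16 and 0.29 in SODgl pairs 1 to 4, against 0.45, 0.40, 0.09 and 0.19 in TAUgl. One SODgl pair lay inside the TAUgl range, and the difference was -0.39 ± 0.13 (SE, limma p 0.0112). The array's 60-base probes were designed on mouse transcripts, with this one at chr16:90115111-90115170 (mm8). Whether it or the Mapt probes read the human transgenes was not tested.

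Mapt, the mouse tau gene, read 0.71, 0.61, 0.60 and 1.00 in SODgl and -0.96, 0.41, 0.04 and 0.82 in TAUgl. All 4 SODgl ratios were above 0, whereas the TAUgl ratios spread widely around it. The difference was 0.65 ± 0.29 (limma p 0.0415), and 2 other probes gave 0.59 and 0.06. Within the fifth and sixth scan batches, which held a pair of each model, it was 1.57 and 0.30. All values within these batches rest on pairs whose 2 dye-exchanged arrays did not correlate positively over tested genes. In the fifth batch r was -0.47 (SODgl pair 2) and -0.76 (TAUgl pair 1), and 1418 and 1802 tested genes lacked a value. In the sixth batch r was -0.10 (SODgl pair 1) and -0.01 (TAUgl pair 2).

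Prnp, which encodes the prion protein, had the greatest size of difference among genes with TAUgl above and no overlap. Its SODgl ratios were 0.42, -0.11, 0.09 and -0.95, and its TAUgl ratios were 1.02, 1.00, 0.93 and 0.60. All TAUgl pairs stood above their controls, while the SODgl pairs scattered around 0. The difference was -1.02 ± 0.25 (limma p 0.000839, adjusted 0.594), a 2.03-fold higher effect in TAUgl, and it ranged from -1.21 to -0.75 over the alternatives run. Within the fifth and sixth scan batches it was -1.14 and -0.58.

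In motor neuron captures the same gene read -0.12, -0.38, 0.05 and -0.71 in SOD1-G93A pairs and 1.23, 0.74, 0.96 and 1.41 in TAU-P301L pairs. Again no pair of one model reached the other, and the difference was -1.37 (limma p 5.39e-05). Many tau transgenes are driven by the mouse prion promoter in vectors that keep untranslated Prnp sequence. The labels do not name the promoter, and whether the probe (chr2:131629522-131629581, mm8) reads such a transcript was not tested. The 250 bases before the Prnp start (RefSeq, GRCm38.p6, chr2:131909678-131909927, + strand) are shown because this is the region such a vector would share, with matches to the GC box GGGCGG, on either strand, in capitals.
Prnp: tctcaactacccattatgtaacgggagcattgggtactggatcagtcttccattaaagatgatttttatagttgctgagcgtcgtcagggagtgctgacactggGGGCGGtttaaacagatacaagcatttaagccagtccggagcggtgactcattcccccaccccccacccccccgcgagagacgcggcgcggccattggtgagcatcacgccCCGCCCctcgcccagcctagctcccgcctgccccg
The window holds 2 matches, and 35.4% of all 27025 genes with such a window hold at least 1, as do 57.8% of the 7380 tested genes with one.

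Among genes with every SODgl pair above every TAUgl pair, Slc6a6 had the smallest p. It encodes the taurine transporter, an osmolyte carrier of astrocytes and neurons. Its ratios were 0.28, 0.60, 0.20 and 0.42 in SODgl and 0.07, -0.19, -0.13 and 0.01 in TAUgl. The TAUgl pairs sat near 0 and all SODgl pairs above them, with a difference of 0.44 ± 0.09 (limma p 0.000343, adjusted 0.594). Within the fifth and sixth scan batches it was 0.53 and 0.47, and in motor neurons 0.01. For genes whose pairs do not overlap, such as this one, Prnp, Ank3, Snap47 and Trem2, the direction within a batch follows from that.

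Ank3 encodes ankyrin-G, the scaffold of the axon initial segment and of nodes of Ranvier. It read 0.57, 1.04, 0.39 and 0.52 in SODgl and -0.01, -0.11, -0.20 and 0.27 in TAUgl. Every SODgl pair exceeded the highest TAUgl pair. The difference was 0.65 ± 0.14 (limma p 0.000466), with 1.05 and 0.68 within the 2 shared scan batches, and the motor neuron difference was 0.45 (limma p 0.0111).

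Myh14, a non-muscle myosin heavy chain, read 0.14, 0.41, 0.54 and 0.64 in SODgl against 0.00, -0.30, -0.11 and -0.04 in TAUgl (difference 0.55 ± 0.12, limma p 0.000356). Myo1e, a class I myosin of membranes, read 0.17, 1.02, 0.33 and 0.61 against -0.31, -0.31, -0.32 and 0.07 (0.75 ± 0.20). The kinase Taok1, which acts in stress signalling and on microtubules, read 0.34, 0.43, 0.60 and 0.26 against 0.06, -0.09, 0.05 and 0.03 (0.39 ± 0.09). In each of these genes no TAUgl pair reached the lowest SODgl pair. Taok1 was well above background in 7 of 8 SODgl but only 3 of 8 TAUgl extracts, so its TAUgl ratios near 0 come from a dim probe. Its 2 dye-exchanged arrays had the same sign in 2 of 8 pairs. Ammecr1l read 0.34, 0.54, 0.42 and 0.69 against 0.07, -0.05, -0.12 and 0.24.

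Ppargc1a encodes PGC-1alpha, the coactivator that drives mitochondrial biogenesis. Its ratios were 0.21, 0.28, 0.41 and 0.23 in SODgl and -0.18, 0.02, -0.04 and 0.06 in TAUgl. The pairs did not overlap and the difference was 0.32 ± 0.08 (limma p 0.00103), but a second probe of the gene gave 0.04. Gabrd, the delta subunit of extrasynaptic GABA-A receptors, had opposite signs in the models, with 0.01, 0.17, 0.13 and 0.19 in SODgl and -0.28, -0.02, -0.15 and -0.19 in TAUgl (0.28 ± 0.07).

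Other genes with a positive ratio in every SODgl pair and a negative one in every TAUgl pair spanned several functions. Tmcc3, a membrane protein of the endoplasmic reticulum, was the largest outside the co-varying group described further on. It read 0.54, 0.67, 0.34 and 0.34 in SODgl and -0.50, -0.78, -0.27 and -0.22 in TAUgl. The groups lay well apart (difference 0.91 ± 0.26, limma p 0.00281, second probe 0.26). The noncoding RNA Xist, which silences an X chromosome in females, read 0.27, 0.85, 0.13 and 0.14 against -0.32, -0.09, -0.52 and -0.02 (0.58 ± 0.18). All mice were female by the labels. Tankyrase Tnks2 (0.46 ± 0.13), the Rab regulator Dennd5a (0.25 ± 0.07, second probe -0.08), Rcbtb1 (0.44 ± 0.15), the golgin Golga3 (0.49 ± 0.18) and the testis actin-like gene Actl9 (0.26 ± 0.08) shared these signs. Actl9 was well above background in 1 of 8 SODgl and 4 of 8 TAUgl extracts only.

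**Figure D1:**
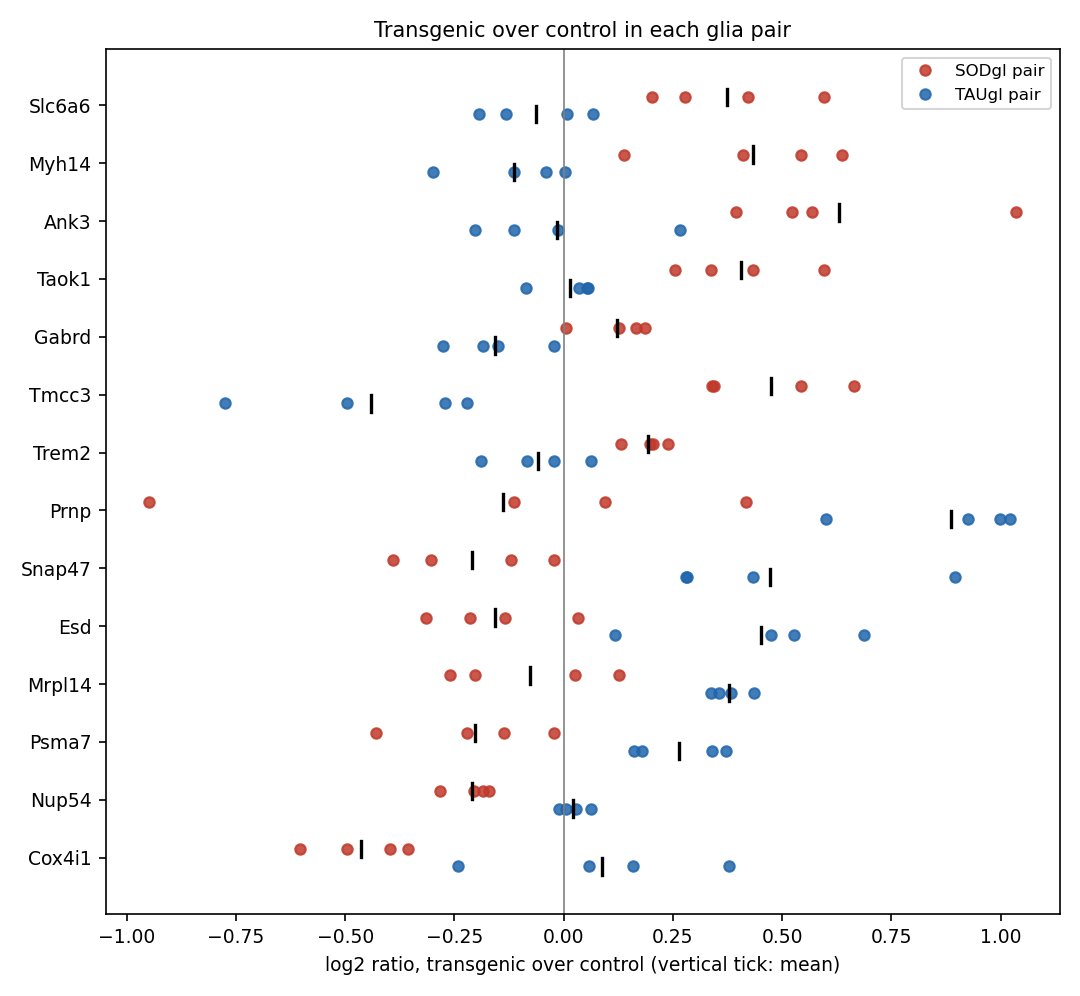
Log2 ratio of transgenic over littermate control for 14 genes (vertical axis) in each of the 4 SODgl pairs (red) and 4 TAUgl pairs (blue), with the mean of each group as a black tick. In all 14 genes the red and blue points do not overlap; the Prnp points of TAUgl lie between 0.60 and 1.02.

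Among genes higher in TAUgl, some serve membrane traffic. Snap47, a SNARE of the SNAP-25 family, read -0.12, -0.30, -0.02 and -0.39 in SODgl and 0.43, 0.28, 0.28 and 0.90 in TAUgl. Signs were opposite in all pairs, with a difference of -0.68 ± 0.15 (limma p 0.000412, adjusted 0.594). A second probe gave -0.25, and within the shared scan batches the difference was -0.74 and -0.40. Clathrin light chain Clta read -0.20, -0.14, 0.12 and -0.47 against 0.34, 0.48, 0.12 and 0.21, so the groups only just separated (-0.46 ± 0.14).

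Detoxifying enzymes were also there. Esd, esterase D, which completes glutathione-dependent formaldehyde clearance, read -0.32, -0.13, 0.03 and -0.21 in SODgl and 0.69, 0.53, 0.12 and 0.47 in TAUgl (-0.61 ± 0.13, limma p 0.000516, second probe -0.08). Gstp1, a glutathione transferase, had the smallest p of all genes tested. Its SODgl ratios were -0.53, -0.40, -0.34 and -0.31, and its 3 TAUgl ratios were 0.86, 0.05 and 0.50, with pair 3 missing and left out of the fit. All SODgl pairs lay below all measured TAUgl pairs, with a difference of -0.86 ± 0.15 (limma p 5.44e-05). Its adjusted p was 0.0123 without TAUgl pair 2, the only call made in any alternative, and up to 0.9999 in the others. A second probe gave -0.09.

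The other genes of this direction with the smallest p were of mixed function. Nup54, a nuclear pore protein, read -0.18, -0.28, -0.21 and -0.17 in SODgl and 0.01, 0.06, -0.01 and 0.03 in TAUgl, a small but tight difference of -0.23 ± 0.06. Gsdme, a pore-forming gasdermin, differed by -0.44 ± 0.12 (second probe 0.18). The nuclease Exo5 differed by -0.45 ± 0.12, the Ran-like GTPase Rasl2-9 by -0.50 ± 0.13, and Ccdc28a by -0.50 ± 0.15. Ccdc28a gave -0.45 in motor neurons too (limma p 0.00825). Krtap4-6, a hair keratin-associated gene with no known place in cord, differed by -0.56 ± 0.13. Its SODgl ratios of -0.43, -0.40, -0.49 and -0.53 just cleared a TAUgl ratio of -0.35, and within the fifth scan batch the difference was -0.05.

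Opposite signs with TAUgl above 0 were seen in all pairs for Cacna1g (-0.48 ± 0.15), a T-type calcium channel, and Hprt (-0.49 ± 0.18), a purine salvage enzyme on the X chromosome. The same held for the co-chaperone Dnajb4 (-0.38 ± 0.16), the ribosomal protein gene Rpl7a (-0.55 ± 0.20, other probes 0.09 and -0.48), Pmf1 (-0.16 ± 0.07) and Ifna13 (-0.13 ± 0.05). The start coordinates of Rpl7a and of Surf1, an assembly factor of cytochrome oxidase, lie 2.693 kb apart in the reference table. Surf1 read -0.20, -0.18, -0.20 and -0.01 in SODgl and 0.02, 0.01, 0.13 and 0.03 in TAUgl (-0.20 ± 0.06). Both neighbours had TAUgl above, as 1 of 2 neighbouring pairs with the same direction among 7 neighbouring pairs of separated genes.

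Some large differences with TAUgl higher, among genes with all 8 pairs, were less regular than those of Prnp and Snap47. Ptgds, the prostaglandin D synthase of oligodendrocytes and meninges, read -0.59, 0.11, -1.04 and -1.24 in SODgl and 0.16, -0.76, 1.00 and 0.62 in TAUgl. The groups overlapped, and the difference of -0.94 ± 0.36 became 0.06 with scan batch as a fixed block. Fam216a (-0.83 ± 0.37) became 0.31 in the same way. With that block the difference rests on the fifth and sixth batches alone, each with a pair of each model. The dye-exchanged arrays of those pairs did not correlate positively, as given above. Akap6, a kinase anchor, differed by -0.66 ± 0.30 with overlap. Sqstm1, the autophagy receptor p62 and an ALS gene, read -0.29, -0.16, 0.07 and -0.55 against 0.18, 0.20, 0.11 and 1.11 without overlap (-0.63 ± 0.22).

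A single co-varying group held the largest differences with SODgl higher. Across the 16 pairs of the series, 24 of the 236 separated genes were linked by correlations above 0.9. Their pairwise r over the 16 pairs ran from 0.74 to 0.99 with a median of 0.95. That is a description of how they were grouped. All 24 had SODgl above, and 122 genes of that direction lay outside the group. The group held 6 of the 6 largest named differences and 4 of the 12 smallest p values with SODgl higher.

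By name, its members share no single tissue or pathway. They include the histone demethylase-like gene Kdm8, the natural killer receptor Klrb1c, the ubiquitin ligase Lnx1, the serotonin receptor Htr3a, the pseudouridine synthase-like gene Rpusd3, the zinc finger gene Zfp280c and the milk protein gene Csn3. Kdm8 read 0.45, 2.21, -0.14 and 0.86 in SODgl and -0.75, -1.02, -0.53 and -0.52 in TAUgl, for a difference of 1.55 ± 0.39 (limma p 0.00121). SODgl pair 2 was far above the others and SODgl pair 3 was below 0. Klrb1c differed by 1.53 ± 0.42, Rpusd3 by 1.44 ± 0.42, Lnx1 by 1.39 ± 0.38, Zfp280c by 1.34 ± 0.40 and Htr3a by 1.32 ± 0.37. Another probe of Klrb1c gave 0.01 and was well above background in 0 of 8 extracts of each model. One of Zfp280c gave -0.03, with 2 of 8 in each. The group's median brightness lay at percentile 94.2 of the tested genes. Whether its probes read the named genes was not tested.

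By pair, the median of the 24 genes was 0.29, 1.65, -0.04 and 0.26 in SODgl and -0.64, -0.88, -0.42 and -0.37 in TAUgl. Both arrays of SODgl pair 2 gave it, at 1.52 and 1.95, and the 2 arrays of TAUgl pair 2 gave -1.05 and -0.69. In motor neuron pairs it ran from -0.64 in TAU-P301L pair 1 to 0.58 in SOD1-G93A pair 2. The median difference was 1.05, and 0.72 without the 2 pairs of the fifth scan batch. That batch had 71.2% and 78.3% of probes well above background in the red channel, against 11.4% to 36.8% in the other glia pairs. Its part in the result was not tested.

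Functional lists held a pair of its members. Vcp, the AAA ATPase mutated in some ALS families, read 0.23, 0.75, -0.11 and -0.02 in SODgl and -0.45, -0.57, -0.42 and -0.61 in TAUgl (0.73 ± 0.19). Atp5h, a subunit of ATP synthase, had a difference of 0.32 ± 0.12 on this probe and -0.39 on its other probe, and -0.03 when the probes were averaged. Lnx1 too gave -0.04 on its other probe. Ms4a19 (0.99 ± 0.31) and 4930449E01Rik (0.89 ± 0.29) had opposite signs in all pairs, as had Atp5h, Vgll1 (0.84), Colca2 (0.77) and the transcript BC027561 (0.85), the last 3 named after their values were seen.

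**Figure D2:**
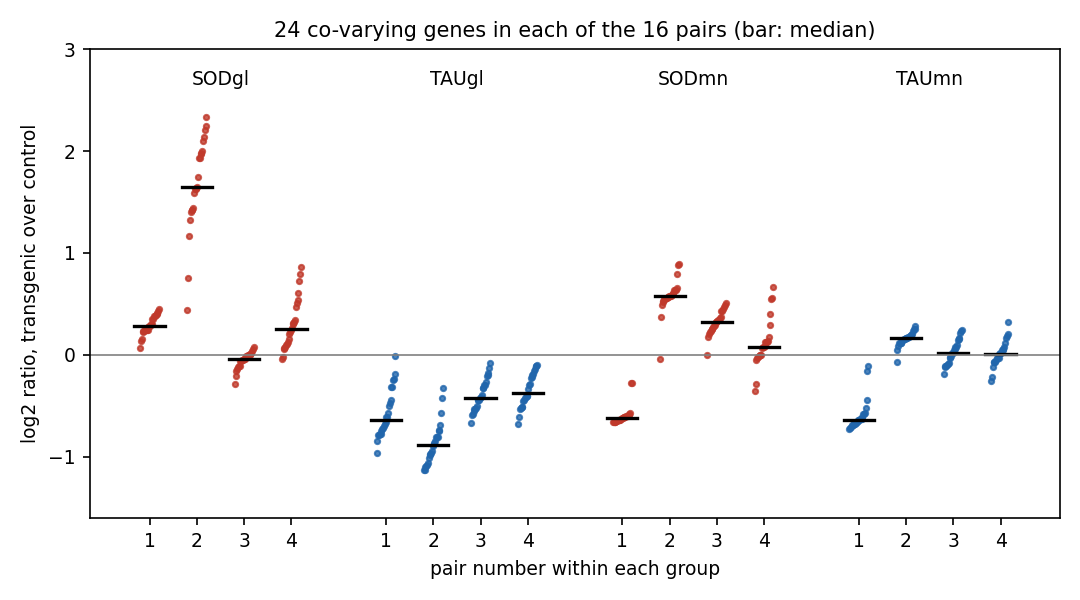
Log2 ratio of transgenic over control for the 24 co-varying genes in each of the 16 pairs, by group and pair number, with the median of each pair as a black bar. SODgl pair 2 stands at a median of 1.65 and all 4 TAUgl pairs lie below 0, from -0.88 to -0.37.

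Marker lists of astrocytes, oligodendrocytes and microglia had medians above that of all genes. Oligodendrocyte precursor markers (1 of 3 above 0, median -0.13) and interneuron markers (5 of 10, median 0.01) did not. Over all genes tested, 52.1% had a difference above 0 and the median was 0.01. Among astrocyte markers 15 of 16 tested were above 0, with a median difference of 0.22. The pair medians were 0.03, 0.13, 0.00 and 0.04 in SODgl and -0.20, -0.16, -0.31 and 0.00 in TAUgl. They did not overlap, although SODgl pair 3 and TAUgl pair 4 nearly met. Within the fifth and sixth scan batches the median difference was 0.37 and 0.19. Of the 16, 2 had an unadjusted p under 0.05, where 5.1% of all genes did. Of the 11 with all 8 pairs, 0 had non-overlapping pairs, where 3.04% of all such genes did. Without the 2 pairs of the fifth scan batch, 12 of 16 were above 0 and the median was 0.21.

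Slc1a2, the main glutamate transporter GLT-1, had the largest difference of the list. It read 0.49, 1.00, -0.45 and 1.38 in SODgl and -1.21, -0.48, -0.52 and -0.00 in TAUgl. SODgl pair 3 lay among the TAUgl values, and the difference was 1.16 ± 0.35 (limma p 0.0055, adjusted 0.797), with 0.21 on its other probe. Mlc1, a protein of astrocyte endfeet, differed by 0.39 ± 0.18. The partly overlapping list of glutamate and potassium handling, which includes Slc1a2 and Slc6a6, had 11 of 14 above 0 and a median of 0.22. It was 0.14 without SODgl pair 2 or pair 4 and 0.12 without the fifth scan batch.

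Oligodendrocyte markers had 12 of 15 above 0 and a median difference of 0.21. Pair medians were 0.05, 0.09, 0.02 and -0.00 in SODgl and -0.02, -0.10, -0.03 and -0.04 in TAUgl, without overlap but very near each other. The median was 0.11 without the fifth scan batch, with 9 of 15 above 0, and also 0.11 without TAUgl pair 1 or pair 2. Olig2, the lineage transcription factor, was measured in 6 pairs and read 0.00, 0.11 and 0.16 in SODgl (pairs 1, 3 and 4) and -0.25, -0.24 and -0.14 in TAUgl (pairs 2 to 4). Its difference was 0.30 ± 0.08 (limma p 0.00156), and in motor neurons 0.15. Fa2h, which makes myelin lipids, differed by 0.28 ± 0.11 over 7 pairs. The broader myelin list had 17 of 22 above 0 and a median of 0.11.

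Microglial markers had 9 of 11 above 0 and a median of 0.15, and 0.18 and 0.0054 within the fifth and sixth scan batches. The pair medians were 0.08, 0.08, -0.02 and 0.06 in SODgl and -0.06, -0.04, -0.17 and -0.04 in TAUgl. Trem2, the lipid receptor of microglia, read 0.20, 0.13, 0.24 and 0.21 in SODgl and 0.06, -0.19, -0.02 and -0.08 in TAUgl. The pairs did not overlap and the difference was 0.25 ± 0.08 (limma p 0.00504), with 0.07 and 0.39 within the shared scan batches. C1qb, a complement component, differed by 0.22 ± 0.09 over 7 pairs. It differed by -0.07 with scan batch as a fixed block, which for this gene leaves the sixth batch alone. Of the list, 2 members were below 0, the lowest being Tmem119 at -0.11 ± 0.07. The list's median difference was 0.05 without TAUgl pair 3 and 0.07 without the fifth scan batch.

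Vessel and blood markers varied in direction. Endothelial and pericyte markers had 9 of 10 above 0 and a median of 0.10, with overlapping pair medians. The median was 0.17 without SODgl pair 3, 0.058 with 6 of 10 above 0 without SODgl pair 4, and 0.061 without the fifth scan batch. It was 0.16 and 0.024 within the fifth and sixth scan batches. Flt1, a VEGF receptor of endothelium, read 0.83, 0.96, 0.07 and 1.19 in SODgl and -0.08, -0.15, -0.17 and 0.09 in TAUgl. SODgl pair 3 lay among the TAUgl values, and the difference was 0.84 ± 0.28 (limma p 0.00844), with 0.26 on its other probe. For red cells, 3 genes were tested. Haemoglobin Hba-a1 had non-overlapping pairs, with -0.06, 0.24, 0.27 and -0.05 in SODgl and -0.26, -0.07, -0.35 and -0.33 in TAUgl (0.35 ± 0.13, second probe 0.11). The motor neuron difference was 0.37. Hbb-bt differed by 0.69 ± 0.53 and the red cell membrane gene Slc4a1 by -0.17 ± 0.06.

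The motor neuron markers had 5 of 15 above 0 and a median of -0.14. Pair medians were -0.12, -0.27, 0.41 and -0.02 in SODgl and 0.15, 0.10, -0.10 and 0.12 in TAUgl. These overlapped widely, since SODgl pair 3 was the highest of all. The median difference was -0.61 and -0.16 within the fifth and sixth scan batches. Without the fifth scan batch the median was 0.03 and 8 of 15 were above 0. None of the 15 had an unadjusted p under 0.05, where 5.1% of all genes did. Nefh, the heavy neurofilament gene, read -0.51, -0.68, 1.12 and -0.47 in SODgl and 0.87, 0.47, -0.23 and 0.53 in TAUgl. Its difference was -0.55 ± 0.41 on this probe and 0.82 on its other probe, of the opposite sign. These neuronal values varied between pairs, and their part in the glial list values was not tested.

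**Figure D3:**
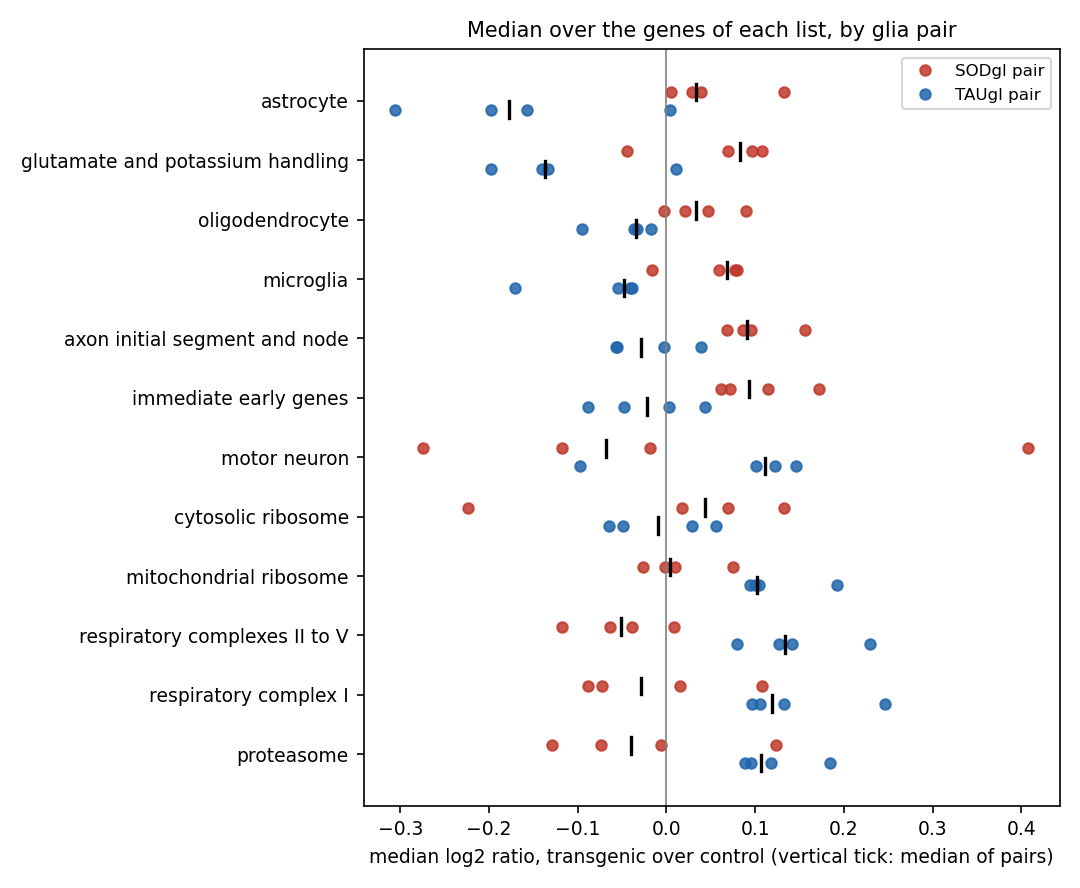
Median log2 ratio of transgenic over control over the tested genes of 12 lists (vertical axis), for each of the 4 SODgl pairs (red) and 4 TAUgl pairs (blue); the black tick is the median of the 4 pairs. The glial lists sit to the right in SODgl and the mitochondrial and proteasome lists to the right in TAUgl, with medians of the pairs no farther than 0.41 from 0.

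Genes of the respiratory chain were mostly higher in TAUgl. In complex I, which takes electrons from NADH, 27 of 32 tested subunits had a difference below 0, with a median of -0.16. In complexes II to V, 32 of 38 were below 0, with a median of -0.12. For the latter the pair medians were -0.04, -0.06, 0.01 and -0.12 in SODgl and 0.13, 0.23, 0.14 and 0.08 in TAUgl, without overlap. For complex I they overlapped, at -0.07, 0.02, 0.11 and -0.09 against 0.10, 0.13, 0.11 and 0.25. The medians kept their sign under each of the 22 alternatives for both lists, as they did for most lists described. Some alternatives, such as fitting glia pairs alone, could not turn them. Their medians ranged from -0.25 to -0.11 and from -0.21 to -0.07. Within the fifth and sixth scan batches they were -0.18 and -0.19 for complex I, and -0.22 and -0.21 for the others.

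Single subunits showed this modestly. Cox4i1, the regulatory subunit of cytochrome oxidase, read -0.36, -0.50, -0.40 and -0.60 in SODgl and 0.16, 0.38, -0.24 and 0.06 in TAUgl. On the average of both arrays all SODgl pairs were below their controls, and the difference was -0.55 ± 0.17 (limma p 0.0073, adjusted 0.797). The 2 dye-exchanged arrays of a pair lay a median of 1.34 apart for this gene, more than the difference itself. They had the same sign in 2 of 8 pairs. Ndufa4 read -0.08, -0.08, 0.06 and -0.09 against 0.43, 0.14, 0.28 and 0.44, without overlap (-0.37 ± 0.15). Atp5c1, the gamma subunit of ATP synthase, differed by -0.37 ± 0.12 and Ndufb3 by -0.34 ± 0.15, both with overlap. In motor neurons the list medians were 0.01 for complex I and 0.09 for complexes II to V, and the difference between captures was not tested.

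The mitochondrial ribosome, which translates the proteins encoded in mitochondria, leaned the same way. There, 44 of 60 tested genes were below 0 and the median was -0.07. Pair medians were -0.00, 0.01, 0.07 and -0.03 in SODgl and 0.09, 0.10, 0.10 and 0.19 in TAUgl, without overlap. Of the 60, 9 had an unadjusted p under 0.05 with TAUgl higher and 0 with SODgl higher, where 1.66% and 3.44% of all genes did. The median was -0.12 without SODgl pair 3 and -0.039 without TAUgl pair 4. It was -0.030 and -0.093 within the fifth and sixth scan batches. Mrpl14 read 0.03, -0.26, -0.20 and 0.13 in SODgl against 0.36, 0.44, 0.34 and 0.38 in TAUgl, a narrow band (-0.46 ± 0.12, limma p 0.00212). Mrpl12, which also binds the mitochondrial RNA polymerase, had opposite signs in all pairs, at -0.11, -0.15, -0.12 and -0.33 against 0.23, 0.31, 0.03 and 0.22 (-0.38 ± 0.13). Mrps33 differed by -0.37 ± 0.11, with -0.02 on its other probe. By contrast, the cytosolic ribosome list had 40 of 74 above 0 and a median of 0.02.

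NRF1 is a transcription factor known for driving many nuclear genes of the respiratory chain. Promoters were searched for its core, GCGCA and GCGC parted by 1 base of any kind, on both strands, in the 250 bases before each RefSeq start. The core was in 5 of 29 complex I promoters with a window (17.2%), 7 of 30 for complexes II to V (23.3%) and 5 of 54 for the mitochondrial ribosome (9.26%). It was in 7.91% of the 7380 tested genes with a window and in 4.23% of all 27025. Among separated genes it was in 11.8% with SODgl above and 11.9% with TAUgl above, at nearly the same share. A pair of promoters with the core in capitals is shown for named genes of these lists, from chr11:120484387-120484636 (+ strand) and chr2:10080433-10080682 (- strand) of GRCm38.p6.
Mrpl12: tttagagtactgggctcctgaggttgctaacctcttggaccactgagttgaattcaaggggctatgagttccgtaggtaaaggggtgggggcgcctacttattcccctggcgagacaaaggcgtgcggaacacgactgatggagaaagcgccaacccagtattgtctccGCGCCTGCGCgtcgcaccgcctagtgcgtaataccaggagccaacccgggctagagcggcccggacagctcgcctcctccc
Atp5c1: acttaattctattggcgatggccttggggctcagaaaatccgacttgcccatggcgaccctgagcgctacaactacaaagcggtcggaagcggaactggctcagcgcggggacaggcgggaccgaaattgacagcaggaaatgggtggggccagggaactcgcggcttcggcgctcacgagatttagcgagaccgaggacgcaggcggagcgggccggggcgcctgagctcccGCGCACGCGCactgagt
The match starts 81 bases before the Mrpl12 start and 17 before this one of the 2 Atp5c1 starts.

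Proteasome genes, whose product degrades ubiquitin-tagged proteins, had 24 of 31 below 0 and a median of -0.12. Pair medians overlapped, since SODgl pair 3 (0.12) lay inside the TAUgl range. The median was -0.18 without SODgl pair 1 and -0.21 without SODgl pair 3. Psma7, a subunit of the core particle, read -0.22, -0.43, -0.02 and -0.14 in SODgl and 0.18, 0.37, 0.16 and 0.34 in TAUgl, with opposite signs in all pairs (-0.47 ± 0.13, limma p 0.0036). Psmb4, another core subunit, read -0.23, -0.08, 0.09 and -0.06 against 0.80, 0.45, 0.01 and 0.97, with TAUgl pair 3 inside the SODgl range (-0.63 ± 0.16). Psmd11, of the regulatory lid, ran against the list at 0.27 ± 0.07 over 7 pairs. The first arrays alone gave 0.59 for it and the dye-switch arrays alone -0.06. In motor neurons the proteasome median was -0.22.

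Lysosomal and autophagy genes had 18 of 36 above 0 and a median of -0.00. With Agilent's processed signals 13 were above 0, and in the deposited matrix 12. An unadjusted p under 0.05 was found for 5 of the 36 with TAUgl higher and 1 with SODgl higher, where 1.66% and 3.44% of all genes had it. Gabarapl1, an autophagosome protein, read -0.51, -0.20, 0.05 and -0.06 in SODgl and 0.34, 0.49 and 0.33 in TAUgl pairs 2 to 4 (-0.57 ± 0.15). Atp6v1d, of the proton pump, gave -0.46 ± 0.15 over 7 pairs, whereas Atg12, of the conjugation machinery, gave 0.33 ± 0.13. The antioxidant list had 13 of 28 above 0 and a median of -0.00. Its differences ran from -0.86 (Gstp1) to 0.77. Disease genes of ALS and tauopathy had 13 of 24 above 0 and a median of 0.04.

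In the axon initial segment and node list 11 of 14 were above 0, with a median of 0.09. Pair medians were 0.09, 0.10, 0.16 and 0.07 in SODgl and -0.00, -0.06, -0.06 and 0.04 in TAUgl, without overlap. The median difference was 0.16 and 0.00014 within the fifth and sixth scan batches. It was 0.047 without SODgl pair 3 and 0.060 without TAUgl pair 3. Immediate early genes, which follow neuronal or glial stimulation, had 10 of 14 above 0 and a median of 0.14, again without overlap of pair medians. Without SODgl pair 1 it was 0.090. Arc, an activity-induced gene of excitatory neurons, read 0.23, 0.30, 0.30 and 0.15 against -0.18, 0.11, 0.10 and -0.15 (0.27 ± 0.11). Jund differed by 0.61 ± 0.25 with overlap.

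The 16 other lists had median differences between -0.13 (oligodendrocyte precursor) and 0.11 (sodium-potassium pump and potassium channels), and pair medians overlapped in all 16. In 8 of all 34 lists the pair medians did not overlap.

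The motor neuron captures were then read at the same genes, over pairs for which the labels do not say whether the mice were those of the glia. Of the 146 genes with SODgl above, 110 (75.3%) had SODmn above TAUmn on average, and 86 of 122 (70.5%) outside the co-varying group. Over all tested genes with a glia difference above 0 this share was 62.1%. Of the 90 genes with TAUgl above, 50 (55.6%) had the same sign in motor neurons, against 51.0% over all genes of that direction. In motor neurons alone, 2.11% and 2.26% of 10419 genes separated in each direction. Of all 5619 genes with a glia difference above 0, 155 separated the same way in motor neurons, as did 172 of 5156 below 0. Of the 146 and the 90, 2 and 1 separated in the opposite direction there. A total of 10 genes, 7 of the 146 and 3 of the 90, separated in the same direction in both captures.

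These genes were Prnp, Apbb3, a binding partner of the amyloid precursor protein, and the cleavage factor Cpsf3 with TAU-P301L higher. Arl8a, a GTPase of lysosome transport, Txlna, Gtf3c1, Edc4, Scand1, Olfr713 and an unnamed transcript had SOD1-G93A higher. They were named after their values were seen. Arl8a read 0.33, 0.40, 0.57 and 0.83 in SODgl and 0.22, -0.20, -0.21 and 0.27 in TAUgl. SODgl pair 1 only just exceeded TAUgl pair 4, with differences of 0.51 in glia and 0.53 in motor neurons. Edc4, an mRNA decapping scaffold, differed by 0.27 and 0.35.

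**Figure D4:**
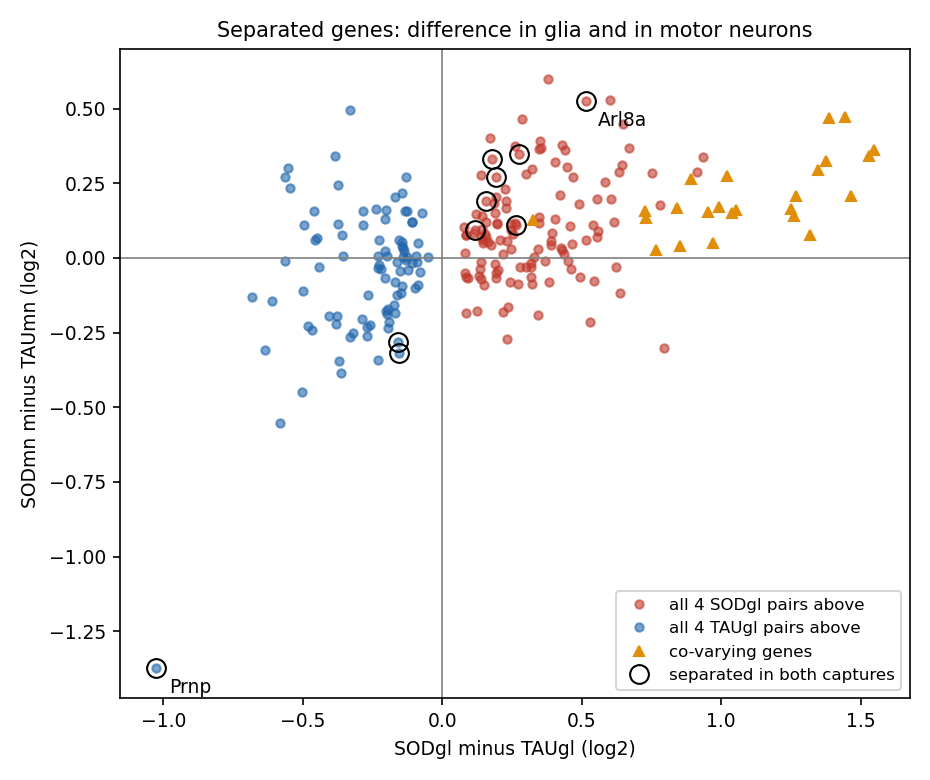
Difference of SOD1-G93A and TAU-P301L effects (log2) in glia, horizontal, against the same difference in motor neurons, vertical, for the 236 genes separated in glia. Orange triangles are the 24 co-varying genes and black rings the 10 genes separated in the same direction in both captures. Prnp lies alone at -1.02 and -1.37.

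The X chromosome held 15 of its 219 genes with all pairs (6.85%) in the separated set, 7 with SODgl and 8 with TAUgl above, and the other chromosomes held 1.36% to 4.37%. Xist, Hprt and Zfp280c are among the 15.

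How firmly these values stand depends on the dye-exchanged arrays. Over tested genes, the 2 arrays of a pair correlated at -0.10, -0.47, 0.46 and 0.50 in SODgl pairs 1 to 4 and at -0.76, -0.01, -0.10 and 0.41 in TAUgl. Differences from the first arrays alone and from the dye-switch arrays alone had the same sign in 73 of 74 named genes, all but Psmd11. The genes were chosen on the average of both, so this is a description. In Ank3 they were 0.67 and 0.62, in Mrpl14 -0.46 and -0.45, and in Prnp -0.75 and -1.30. Within pairs the arrays agreed less. Among named genes with 8 pairs, both arrays had the same sign in a median of 5 of 8 pairs. It was 1 of 8 in Surf1, 2 of 8 in Trem2 and Cox4i1, 7 of 8 in Ank3 and 8 of 8 in Tmcc3. Signs of pairs given above are those of the average of both arrays.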

How the data were processed

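Total RNA of laser-captured cells was measured on 2-colour Agilent arrays, a transgenic and a littermate control extract on each, with a second array per pair carrying exchanged dyes. The authors deposited scanner files of spot intensity and a matrix of log10 ratios. Per the file headers the glia arrays were extracted with Agilent Feature Extraction 9.5.1.1 and the motor neuron arrays with 8.5.1.1, whereas the submitters' processing notes name 8.5.1.1 for all. The deposited intensity columns were corrected here with normexp (offset 50) on mean signal and local background and normalized by loess within arrays (limma 3.58.1, R 4.3.3), with control spots at weight 0 and outlier spots set to missing. Log2 ratios were turned to transgenic over control and averaged per pair, a pair being missing where either array was. The brightest probe stood for a gene. Of 41174 probes, 23477 were named through accession, 6678 through symbol and 2891 through synonym in the RefSeq gene list, and 8128 kept the files' name.

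The 16 pairs were fitted in 1 limma model with 4 means, and SODgl minus TAUgl was tested two-sided with Benjamini-Hochberg adjustment over 10775 genes. The procedure was tested on simulated data. No pair of arrays held identical values. The number of pairs, 4 per group, limits the precision, and the p-values cover the spread between these littermate pairs. Genes were named as Sod1, Mapt and Prnp, any gene past the threshold, the 12 smallest p in each direction among non-overlapping genes, the 10 smallest with opposite signs, the 6 largest differences with an unadjusted p under 0.05 (all 3 over genes with values in all 8 pairs, the first and last also with a symbol), and up to 2 per direction in each list. Of these list members, only those with an unadjusted p under 0.05 and the red cell genes were kept, which left 74 named genes. Members running against their list were often dropped by this. Nefh and Tmem119 are given besides and are not among the 74. The members and lists were chosen with earlier results of these data known. Alternatives were the Agilent processed signals, the deposited log10 matrix, no background subtraction, median centring, probe filters, the mean of probes, outlier spots kept, pair weights, glia pairs alone, scan batch as a block, the replicate number as a block and leaving out each pair. Leaving out the fifth scan batch was added after the data were seen.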

Additional observations from a re-analysis of the deposited data

Results flagged for a closer look

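Within a group of 4 pairs, a single pair stood far from the other three for 13 of 139 gene groups examined and 3 of 36 list groups, where chance alone gives about 1 in 20 groups. Among genes higher in SODgl, the distant pair read -0.086 for Taok1 and 0.073 for Myo1e in TAUgl, and in SODgl 1.42 for Ms4a19, 1.17 for 4930449E01Rik and 0.44 for Atp5h. The last 3 were all SODgl pair 2. Among genes higher in TAUgl, the distant SODgl pair read -0.0084 for Surf1, -0.33 for Mrpl12, -0.55 for Rpl7a, -0.26 for Dnajb4 and 0.058 for Ndufa4. In TAUgl it read 0.13 for Surf1 and 1.11 for Sqstm1. Hbb-bt stood at 0.053 in TAUgl pair 4. Of the list medians, microglia stood apart at -0.17 in TAUgl pair 3, endothelial and pericyte at -0.067 in SODgl pair 3 and the mitochondrial ribosome at 0.19 in TAUgl pair 4.

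All SODgl pairs had one sign and all TAUgl pairs the other in 21 named genes. The difference was tested with limma for each, and none passed after Benjamini-Hochberg adjustment. SODgl was above 0 for Gabrd (difference 0.28), Tmcc3 (0.91), Tnks2 (0.46), Dennd5a (0.25), Xist (0.58), Ms4a19 (0.99), Actl9 (0.26), 4930449E01Rik (0.89), Rcbtb1 (0.44), Golga3 (0.49) and Atp5h (0.32). TAUgl was above 0 for Snap47 (-0.68), Psma7 (-0.47), Cacna1g (-0.48), Surf1 (-0.20), Mrpl12 (-0.38), Rpl7a (-0.55), Hprt (-0.49), Ifna13 (-0.13), Pmf1 (-0.16) and Dnajb4 (-0.38).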

How the results depend on the processing

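Over 22 alternatives, 1597 of 1602 values of the 74 named genes kept their direction and their side of the threshold. Much of this was fixed in advance. Many of these genes were chosen for pairs that do not overlap, and leaving out pairs cannot turn their direction. Fitting glia pairs alone leaves each difference unchanged, and no gene passed the threshold to begin with. Of 395 list medians, 360 moved by less than the spread between pairs. Direction turned for Atp5h with the mean of probes (-0.032) and, with scan batch as a fixed block, for Ptgds (0.064), Fam216a (0.31) and C1qb (-0.066). Without TAUgl pair 2, 1 gene passed an adjusted p of 0.05 (Gstp1, -1.07, limma adjusted p 0.0123); leaving out any other pair gave 0. With the replicate number as a block, 551 genes had an unadjusted p under 0.05 against 550 and 0 passed adjustment. Same-numbered SODgl and TAUgl pairs are different animals, and their deviations correlated at 0.17, -0.15, -0.09 and 0.31.

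Genes at an unadjusted p under 0.05 numbered 343 without background subtraction, 127 with median centring, 201 where probes were well above background in all extracts (fewer genes tested) and 1089 with no filter. Separated genes with SODgl and with TAUgl above numbered 117 and 55 in the deposited matrix, 106 and 58 with median centring, 60 and 28 with the strict filter, 237 and 255 with none, 226 and 119 with outlier spots kept, and 530 and 541 without the fifth scan batch. Leaving out single pairs gave 180 to 400 and 132 to 313. Opposite-sign genes numbered 12 and 0 in the matrix, 7 and 11 with median centring, 15 and 5 with the strict filter, 59 and 63 with none, 138 and 137 without the fifth scan batch, and 39 to 130 and 28 to 102 without single pairs. Counts with 3 pairs in a group rise by construction.

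With Agilent's processed signals list medians were 0.30 for microglia, 0.25 endothelial, -0.22 mitochondrial ribosome, -0.35 proteasome, -0.12 antioxidants, -0.071 lysosome, 0.52 immediate early, 0.23 myelin and 0.26 axon initial segment. The deposited matrix gave 0.25, 0.23, -0.21, -0.33, -0.12, -0.083, 0.44, 0.25 and 0.29 in that order, and 0.35 for glutamate handling. The strict filter gave 0.30 for microglia, -0.28 proteasome, 0.40 immediate early, 0.26 myelin and 0.15 axon initial segment, and no endothelial value. No filter gave 0.077 for oligodendrocytes, 0.058 microglia, 0.042 immediate early and 0.052 myelin. Scan batch as a fixed block gave 0.067 for microglia and -0.21 for complexes II to V. The oligodendrocyte median was 0.11 without the fifth scan batch and 0.11 to 0.24 without single pairs, and that of microglia 0.047 to 0.20. The cause of these shifts was not tested.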
